A study of Mus musculus with 8 samples.

Results

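The miR-200 family was followed in small RNA libraries of mouse sperm. Its members were the rows of the count table named miR-200a, miR-200b, miR-200c, miR-141 or miR-429, chosen by name and not by their values. These were 7 of the 387 mature miRNAs listed, written there with the mouse prefix (mmu-miR-200b-3p, mmu-miR-200c-3p and so on). They are the 3p arms of all 5 hairpins and the 5p arms of miR-200a and miR-200b. Sperm came from C57BL/6 adults 2 months old in 2 groups of 4 libraries, titled F0-Exposed and F0-Trained. The labels say that the treatments related to smell and describe them no further, and no untreated group was analysed here. The labels do not state whether libraries of a group stem from different animals, so the p-values reflect library-to-library spread that may be technical.

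Mature miRNAs guide repression of messenger RNAs, mainly through pairing of the seed, the bases near their 5′ end. The miR-200 family is known for keeping epithelial cells epithelial. Its members repress ZEB1 and ZEB2, factors that shut off E-cadherin, and the ZEB factors in turn repress the miR-200 genes. In the male tract, sperm mature within the epididymis, a duct lined with epithelium that passes small RNAs to them in vesicles. Members of the family are also known from olfactory neurogenesis, but these libraries hold sperm RNA.

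The family falls into seed groups that do not follow its gene clusters. The mature 3p sequences are given with the seed (bases 2 to 8) in capitals. They show what separates counts of near-identical members, told apart by 1 internal base and by the 3′ end. They were taken from RefSeq (GRCm38.p6), where all 7 members had an entry.
miR-200b-3p: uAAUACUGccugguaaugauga
miR-200c-3p: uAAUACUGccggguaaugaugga
miR-429-3p: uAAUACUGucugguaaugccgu
miR-200a-3p: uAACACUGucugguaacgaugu
miR-141-3p: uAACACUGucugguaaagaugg

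Counted from the 5′ end, miR-200c-3p differs from miR-200b-3p by U11G and A22G and carries 1 further base. miR-141-3p differs from miR-200a-3p by C17A and U22G. The seed change between the groups is U4C, from miR-200b-3p to miR-200a-3p. Among 1679 mature mouse miRNA names in that table, the seed AAUACUG was found in no miRNA but miR-200b-3p, miR-200c-3p and miR-429-3p, and AACACUG in none but miR-200a-3p and miR-141-3p. How the authors treated reads matching more than 1 member is not given in the sources used here, so the split within each near-identical pair is uncertain.

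The hairpins lie in a pair of clusters, both on the minus strand. The first holds Mir200b at chr4:156055681-156055750, Mir200a at chr4:156054896-156054985 and Mir429 at chr4:156053905-156053987. Gaps of 695 and 908 bases separate them, and all 3 lie within the protein-coding gene Ttll10 in GENCODE's GRCm38 annotation, in introns of it. They also lie within the non-coding gene Gm13648, Mir200b and Mir200a in its introns and Mir429 in an exon. The second cluster holds Mir200c at chr6:124718322-124718390 and Mir141 at chr6:124717914-124717985, 336 bases apart, both in an intron of the non-coding antisense gene Gm15884. Mir141 also overlaps an exon of the gene model Gm29008. The count table names no build, so these positions are those of the hairpin genes of the same name. Hairpin sequences are shown for the genes with both arms in the table and for the most abundant member, with the listed arms in capitals.
Mir200b: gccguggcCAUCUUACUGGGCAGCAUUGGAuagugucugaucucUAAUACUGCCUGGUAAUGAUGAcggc
Mir200a: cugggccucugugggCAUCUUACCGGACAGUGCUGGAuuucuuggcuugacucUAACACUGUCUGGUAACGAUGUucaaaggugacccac
Mir200c: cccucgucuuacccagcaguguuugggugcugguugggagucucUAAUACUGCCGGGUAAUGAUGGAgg

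Library totals ran from 193013 to 261903 counts, so 1 read stood for 3.82 to 5.18 CPM, the unit used here for counts scaled to the library total. The family took 4321 counts over the 8 libraries. Its share of a library was 0.243% ± 0.0752 (SD, n = 4) among Exposed libraries and 0.214% ± 0.0286 (SD, n = 4) among Trained ones. The 3 most abundant members, miR-200c-3p, miR-200b-3p and miR-200a-3p, held 97.5% of the family's counts. The other 4 members had 108 counts together.

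miR-200c-3p, from the chromosome 6 cluster, was the most abundant member and ranked 80 of 387 by mean CPM. Its counts were 247, 405, 261 and 216 in Exposed 1 to 4, which are 1021, 1939, 1024 and 1119 CPM. In Trained 1 to 4 they were 348, 282, 217 and 303, which are 1390, 1082, 829 and 1264 CPM. Exposed 2 was the highest library and Trained 3 the lowest, and the groups overlapped. The SD over the Exposed libraries was 444 CPM where counting alone gives 76.3, and in Trained it was 244 CPM against 67.3 from counting.

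miR-200b-3p, the first member of the chromosome 4 cluster in transcript order, ranked 92. Its counts were 188, 210, 164 and 124 in Exposed 1 to 4, which are 777, 1005, 643 and 642 CPM. In Trained 1 to 4 they were 181, 159, 177 and 169, which are 723, 610, 676 and 705 CPM. Exposed 2 was again the highest library, and the range of Trained overlapped that of Exposed. The 4 Trained libraries spread no more than counting allows, with an SD of 49.6 CPM against 51.8 from counting, while the Exposed SD of 171 CPM stood against 58.9.

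miR-200a-3p, next in the same cluster and carrying the other seed, ranked 127. Its counts were 71, 108, 73 and 37 in Exposed 1 to 4, which are 294, 517, 286 and 192 CPM. In Trained 1 to 4 they were 72, 59, 80 and 62, which are 287, 226, 305 and 259 CPM. Both the highest and the lowest library were Exposed ones, Exposed 2 and Exposed 4, and all 4 Trained values lay between them. The Trained SD of 34.6 CPM was close to the 32.6 that counting gives, against an Exposed SD of 138 and 38.1 from counting.

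miR-141-3p and miR-429-3p were near the limit of these libraries. miR-141-3p, the partner of miR-200c on chromosome 6, had 4, 5, 4 and 4 counts in Exposed 1 to 4 and 8, 6, 5 and 4 in Trained 1 to 4. miR-429-3p, the last hairpin of the chromosome 4 cluster, had 3, 5, 6 and 6 counts in Exposed and 7, 3, 4 and 4 in Trained. For both, the SD in each group was below that from counting, and no difference between the groups was detectable at this depth.

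The order of the levels was miR-200c-3p, miR-200b-3p, miR-200a-3p, then miR-141-3p with miR-429-3p, and last the 5p arms. Levels of different miRNAs were compared as CPM of mature sequences 22 or 23 bases long. miR-200c-3p exceeded miR-200b-3p in 8 of 8 libraries, by 1.23 to 1.93 times within a library, although their ranges over all libraries overlapped. miR-200b-3p exceeded miR-200a-3p in 8 of 8, by 1.94 to 3.35 times, with ranges that did not overlap. The next step was the widest: miR-200a-3p had 9.0 to 21.6 times the counts of miR-141-3p in every library. miR-141-3p and miR-429-3p were not separated, with miR-141-3p higher in 4 libraries and equal in 2. Reads of different miRNAs can be ligated and amplified unequally, which these counts do not measure.

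**Figure D1:**
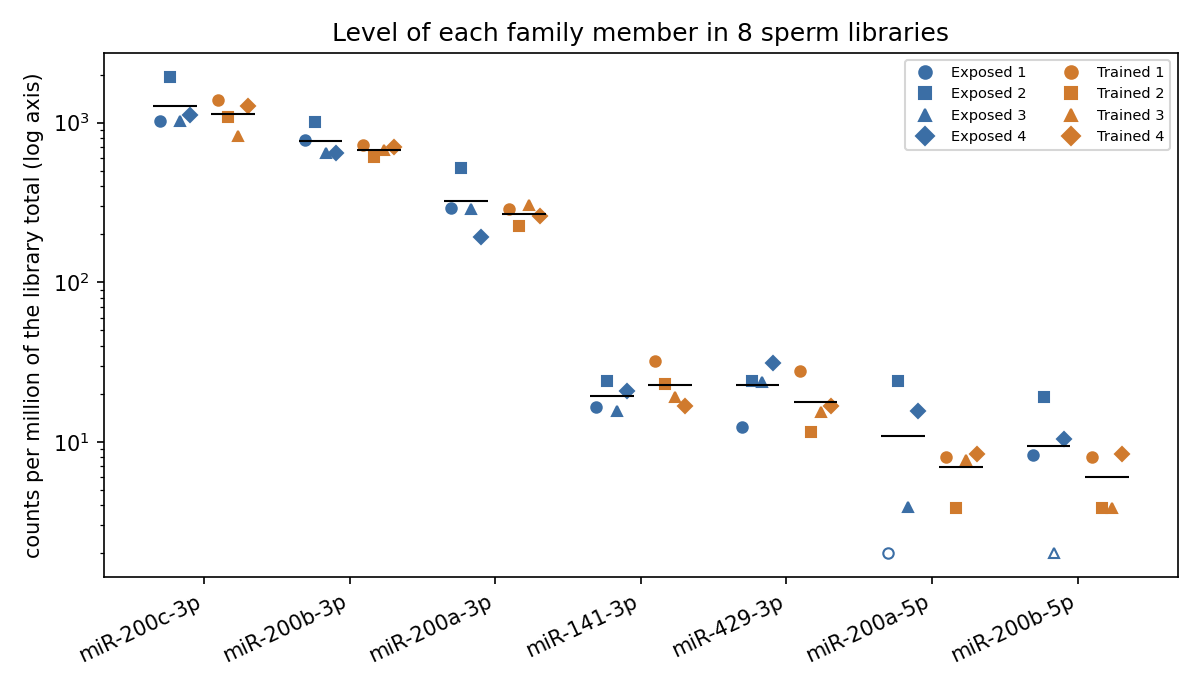
Level of each family member in the 8 libraries, in CPM on a log axis; bars are group means, and open symbols, drawn at an arbitrary height at the bottom, are libraries with 0 counts. The 3 abundant 3p arms lie between 192 and 1939 CPM and every other member lies at 31.9 CPM or less, with Exposed 2 the highest library for each of the 3.

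The 3p arm was the main product of both hairpins with 2 listed arms. miR-200a-5p had 0, 5, 1 and 3 counts in Exposed 1 to 4 and 2, 1, 2 and 2 in Trained 1 to 4. It made up 2.77% of the counts of both miR-200a arms over all libraries (16 of 578, 95% exact binomial interval 1.59 to 4.46%). miR-200b-5p had 2, 4, 0 and 2 counts in Exposed and 2, 1, 1 and 2 in Trained, or 1.01% of both arms (14 of 1386, interval 0.553 to 1.69%). The 0 for miR-200a-5p in Exposed 1 allows up to 12.4 CPM and that for miR-200b-5p in Exposed 3 up to 11.8 CPM, taking 3 counts as the limit. Intervals and limits cover counting error only, since no use of molecular identifiers is stated. These 5p arms share the seed AUCUUAC with each other and with no other name in the RefSeq table. The 5p arms of miR-200c, miR-141 and miR-429 are not listed in the table and were not analysed here.

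As counted, the clusters contributed nearly equally, but from unequal hairpins. The totals depend on how reads were split within the near-identical pairs, whose members lie in different clusters. The chromosome 6 cluster gave 2319 counts and the chromosome 4 cluster 2002. Its share of the family was 53.0% ± 3.36 (SD, n = 4) in Exposed and 53.9% ± 5.52 (SD, n = 4) in Trained, a difference smaller than either SD. Within the chromosome 6 cluster, miR-141-3p was 1.73% of the counts of both 3p arms (40 of 2319, interval 1.24 to 2.34%), so miR-200c-3p had 57.0 times its counts. Within the chromosome 4 cluster, miR-200b-3p had 36.1 times the counts of miR-429-3p. By seed, AAUACUG held 86.1% ± 2.26 of the 3p counts in Exposed and 86.1% ± 2.50 in Trained (SD, n = 4 each), since miR-200c-3p and miR-200b-3p both carry it.

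The balance of the near-identical pair varied between libraries, and its group means lay well within 1 SD of each other. miR-200c-3p was 56.8, 65.9, 61.4 and 63.5% of the miR-200b-3p plus miR-200c-3p counts in Exposed 1 to 4. In Trained 1 to 4 it was 65.8, 64.0, 55.1 and 64.2%. The lowest, Trained 3 (95% exact binomial interval 50.0 to 60.1%), lay below the intervals of Trained 1 (61.6 to 69.8%) and Exposed 2 (62.0 to 69.6%) with no overlap. Exposed 1 (52.0 to 61.5%) lay below the same pair. These libraries were picked as extremes after the values were seen, and the intervals cover counting error only. Whether the balance itself differed between libraries was not tested. The group means were 61.9% ± 3.86 in Exposed and 62.3% ± 4.85 in Trained (SD, n = 4 each). Within the chromosome 4 cluster, miR-200a-3p was 23.0 to 34.0% of the miR-200a-3p plus miR-200b-3p counts, and all 8 intervals overlapped.

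**Figure D2:**
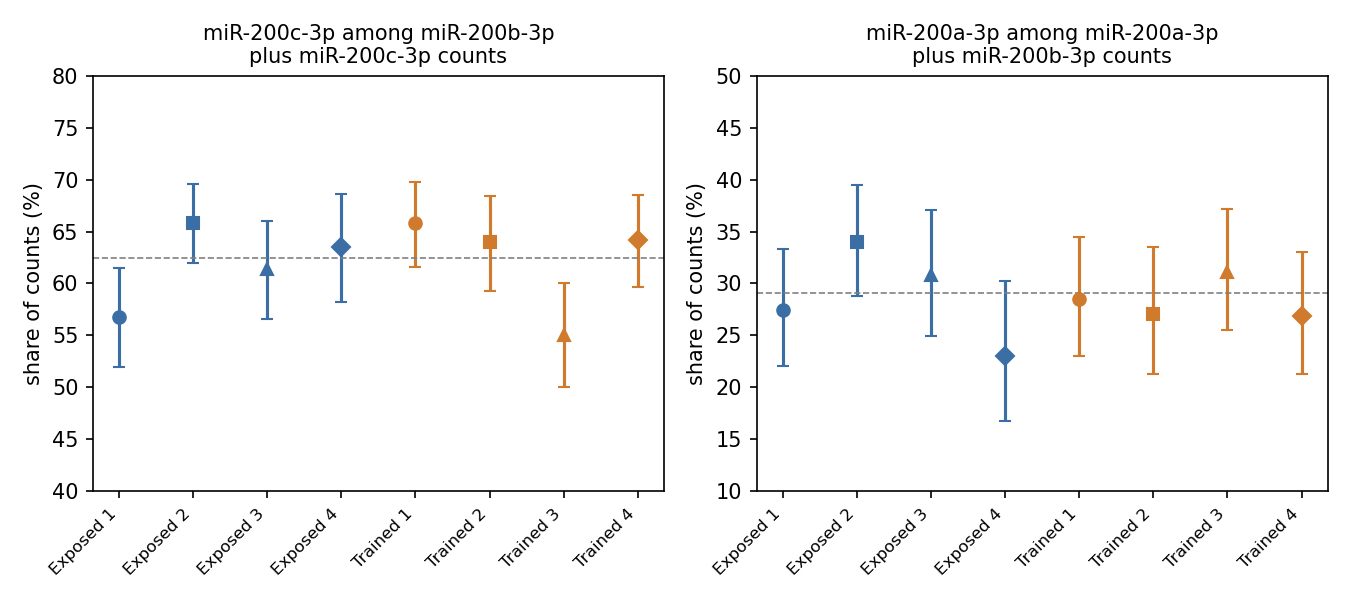
Share of counts in percent by library, with 95% exact binomial intervals as bars; the dashed line is the share over all 8 libraries, and neither axis starts at 0. Left, miR-200c-3p among miR-200b-3p plus miR-200c-3p counts, with Trained 3 lowest at 55.1%; right, miR-200a-3p among miR-200a-3p plus miR-200b-3p counts, from 23.0% in Exposed 4 to 34.0% in Exposed 2.

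The comparison of the treatments, Trained over Exposed, asked whether levels of the family in sperm differed, and no member passed the test. The 3 abundant members had enough counts to be tested by edgeR's quasi-likelihood fit over 226 miRNAs, and 0 of them had an FDR under 0.05. The background was the same, with 0% of the 226 called. An unadjusted p under 0.05 was found for 10 of the 226, 4.42%, and for none of the 3. DESeq2 and limma-voom also called 0 of 226. At an unadjusted p under 0.05 they had 12 and 8.

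The fitted log2 fold change, Trained over Exposed, was -0.19 for miR-200c-3p (SE 0.24, 95% interval -0.73 to 0.34, FDR = 0.998 by edgeR). For miR-200b-3p it was -0.21 (SE 0.16, interval -0.56 to 0.15, FDR = 0.998 by edgeR), and for miR-200a-3p -0.29 (SE 0.27, interval -0.91 to 0.32, FDR = 0.998 by edgeR). In this fit to all libraries, the 3 intervals leave out a 2-fold change in either direction, that of miR-200a-3p narrowly. Intervals were not computed for these members under the other settings with the count filter. A 2-fold change is therefore not excluded in general. The median of the 3 was -0.21, beside 0.0049 over all 226 tested, of which 48.2% had values below 0. No member had all 4 Trained libraries below or above all 4 Exposed ones; such complete separation was found for 1.33% of the 226 with Trained lower and 0.885% with Trained higher.

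These values rested on Exposed 2. Without it the log2 fold change was 0.08 for miR-200c-3p, -0.05 for miR-200b-3p and 0.03 for miR-200a-3p. Without Trained 3, that of miR-200c-3p was -0.04. The family's summed level was 2427 ± 752 CPM in Exposed and 2142 ± 286 CPM in Trained (SD, n = 4 each), and 2052 ± 68.8 CPM in the 3 Exposed libraries other than Exposed 2. With both Exposed 2 and Trained 3 left out, a setting chosen after the values were seen, all 3 fitted values were above 0 and miR-200c-3p stood at 0.26 (FDR = 0.715 by edgeR). Adding miR-200b-3p and miR-200c-3p together before the fit, since reads could be split between them, gave -0.20 (FDR = 0.999 by edgeR).

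**Figure D3:**
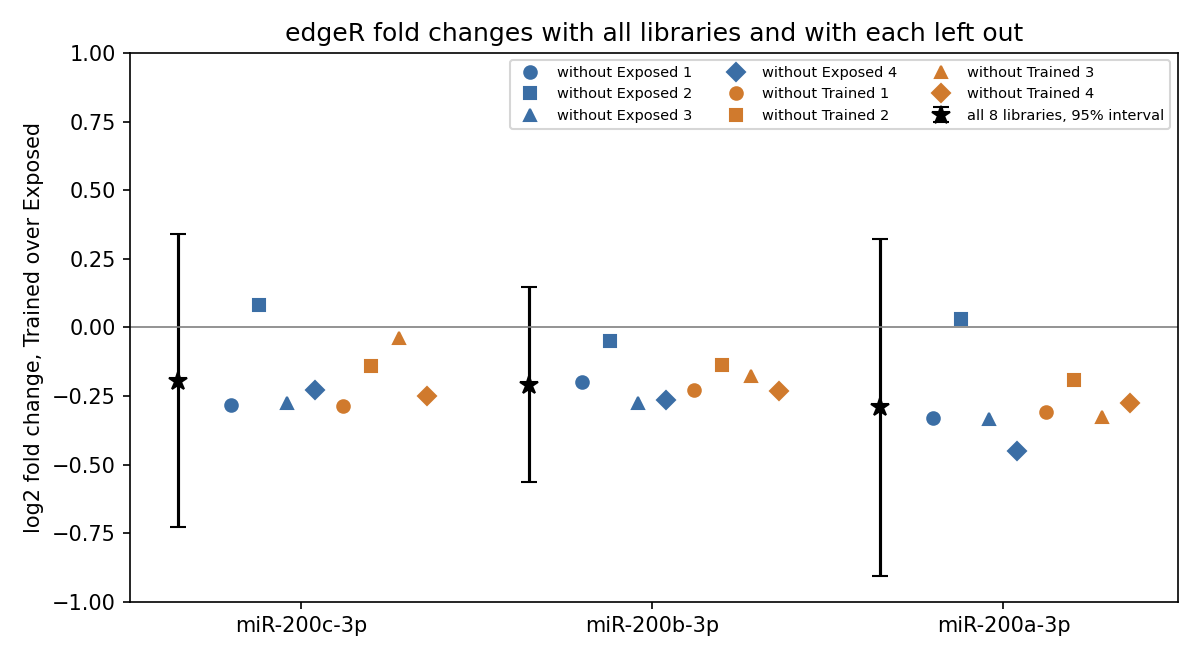
Log2 fold change, Trained over Exposed, from edgeR for the 3 tested members; stars are the fits to all 8 libraries with their 95% intervals, and each other symbol is a fit without the library named in the legend. The 3 intervals span 0, and the fits without Exposed 2 lie at 0.08, -0.05 and 0.03.

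With no filter on low counts, all 7 members could be fitted, and none had an FDR under 0.05 by edgeR, among 0 of 387 called. The log2 fold changes of the low members had wide intervals. They were 0.24 for miR-141-3p (95% interval -0.71 to 1.20), -0.33 for miR-429-3p (-1.31 to 0.65), -0.52 for miR-200a-5p (-2.20 to 1.15) and -0.56 for miR-200b-5p (-2.16 to 1.03). In the authors' deposited table, all 7 members had an FDR of 1. The log2 fold changes in the authors' deposited table ran from -0.55 for miR-200a-5p to 0.13 for miR-141-3p, with -0.18 for miR-200c-3p, -0.20 for miR-200b-3p and -0.28 for miR-200a-3p. Its group means were the plain means of raw counts, at which miR-200b-3p was equal, 171.5 in both groups.

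Exposed 2 stood apart in the family and in several other miRNAs. Its summed family level of 3552 CPM was 1.75 times the median of the other 7 libraries. Against that median, the ratio was 1.81 for miR-200a-3p, 1.79 for miR-200c-3p and 1.49 for miR-200b-3p. The median of all 226 tested miRNAs in that library was 0.966 times. A ratio as high as that of miR-200a-3p was reached by 9 of 226 miRNAs, and as high as that of miR-200c-3p by 10. For miR-200b-3p it was 23, the members included in each count. Single members also had extreme ranks in other libraries. miR-200c-3p in Trained 1 was at 1.28 times, reached by 13 of 226. miR-200a-3p in Exposed 4 was at 0.667 times, with 219 of 226 at or above it.

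Marker lists of other cell types were read beside this. In Exposed 2 the smooth muscle and stroma list (5 of 6 names listed) summed to 15491 CPM. The other Exposed libraries had 8051 to 10307 CPM and Trained 7323 to 8580. Of the 15491 CPM, 15189 were miR-143-3p alone, at 1.94 times the median of the other 7 libraries. miR-199a-5p was at 1.83, miR-199b-3p at 1.3 and miR-199a-3p at 1.27 times, though miR-199a-3p was higher in Exposed 3 and Trained 3. miR-145a-5p was at 2.4 times, from 20 counts in all libraries. The striated muscle list (4 of 5 listed) summed to 3078 CPM in Exposed 2. The other Exposed libraries had 1736 to 2121 CPM and Trained 1298 to 1853. Members of the striated muscle list went opposite ways in Exposed 2. miR-1a-3p, miR-206-3p and miR-133a-3p were at 2.28, 2.46 and 3.0 times the median of the other 7 libraries. miR-499-5p, at 0.688 times, was at its lowest there. The red blood cell list (5 of 5 listed) was low there, at 445.19 CPM. The other Exposed libraries had 1840 to 7507 CPM and Trained 444.98 to 19675, where Trained 2 was as low. Of the Exposed 2 sum, miR-486-5p held 187 CPM and miR-3107-5p, matched to miR-486b, 215 CPM. The list also holds both arms of miR-144, so its 5 names are not separate results. The leukocyte list (6 of 6 listed) was lowest there, at 2264 CPM, against 4329 to 6134 in the other Exposed libraries and 2762 to 9397 in Trained. That sum followed miR-146a-5p, miR-142-5p and miR-150-5p (0.394, 0.556 and 0.558 times the median of the others), while miR-142-3p, miR-342-3p and miR-223-3p were at 1.02, 1.12 and 2.32 times, the last from 12 counts in all libraries. The male germ cell list (9 of 9 listed) summed to 314930 CPM, within the 270200 to 326000 of the other libraries. Behind that sum, miR-881-3p, miR-741-3p and miR-34b-3p were at their highest in Exposed 2 (1.31, 1.26 and 1.10 times the median of the others), and miR-34b-5p and miR-465b-5p were at their lowest (0.417 and 0.871 times). miR-214-3p of the stroma list and miR-133b-3p of the striated muscle list are not listed. Trained 3, the library lowest in miR-200c-3p, was highest in the red blood cell list (19675 CPM) and the leukocyte list (9397 CPM). It was lowest in the male germ cell list (270200 CPM). There miR-34c-5p, miR-881-3p, miR-741-3p and miR-470-5p of the germ cell list were at their lowest. miR-34b-5p was at its highest in Trained 3, at 15655 CPM, and the rest of that list lay in between. Of the leukocyte list, miR-146a-5p was higher in Exposed 4. The part of other cells in the levels of the family was not tested. In bulk RNA, fewer cells of a type and less RNA per cell cannot be told apart.

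Other miRNAs known from epithelia or tied to the ZEB factors did not all follow the family. All 10 of that list were in the table, 7 were tested, and 0 passed an FDR of 0.05 by edgeR. Their median log2 fold change was -0.07, with 5 of 7 below 0. miR-203-3p, a miRNA of stratified epithelium and a known target of ZEB1 repression, had 80, 116, 80 and 56 counts in Exposed 1 to 4 and 89, 79, 101 and 74 in Trained 1 to 4. In Exposed 2 it was 1.77 times the median of the other libraries. miR-205-5p, a basal epithelial miRNA that also represses the ZEB factors, had 2, 12, 2 and 1 counts in Exposed and 2, 4, 2 and 3 in Trained, too few to be tested. Its 12 counts in Exposed 2 were the most of any library.

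The rest of the epithelial list went both ways in Exposed 2. miR-375-3p, known from endocrine and glandular cells and by far the most abundant of the list at 13112 to 23605 CPM, was 1.28 times the median in Exposed 2 and lowest in Trained 3. miR-183-5p, miR-96-5p and miR-182-5p, a cluster of sensory cells and epithelia, were at 0.892, 0.699 and 1.08 times. The gut and liver miRNAs miR-192-5p and miR-194-5p were at 0.884 and 1.24 times. miR-215-5p and miR-31-5p, with 21 and 14 counts in all, were at 2.08 and 1.25 times.

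**Figure D4:**
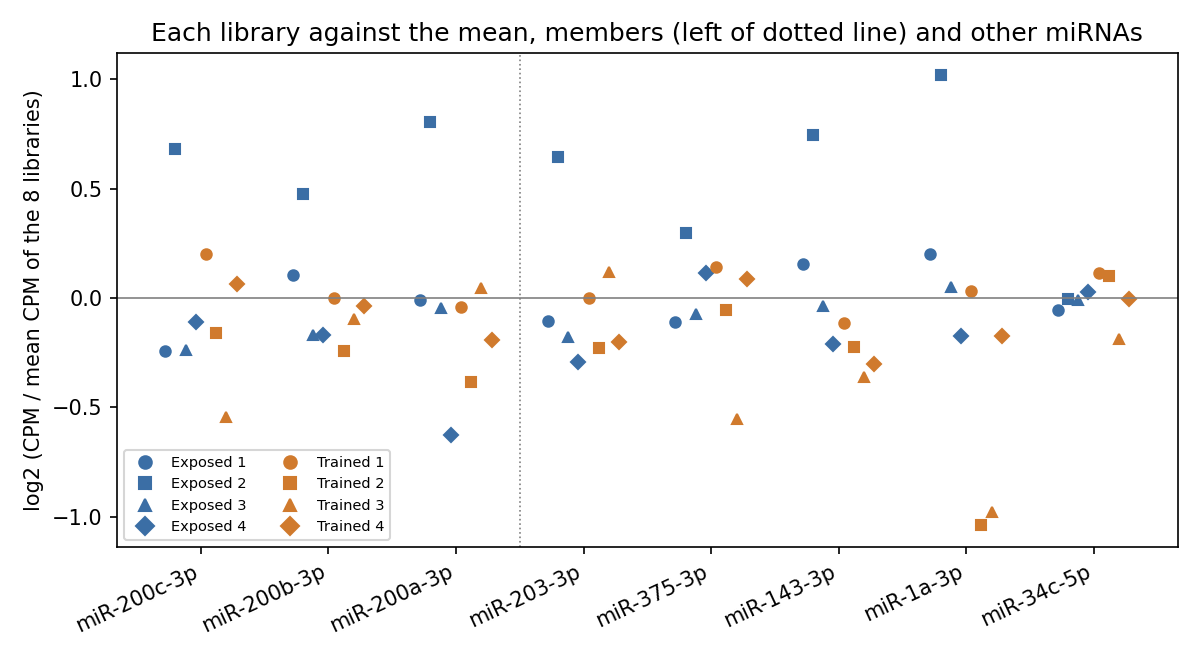
Each library as log2 of its CPM over the mean CPM of the 8 libraries, for the 3 abundant members and for 5 other miRNAs chosen after their values were seen, from the epithelial (miR-203-3p, miR-375-3p), stromal (miR-143-3p), muscle (miR-1a-3p) and germ cell (miR-34c-5p) lists. Exposed 2 (blue squares) is the highest library for the 3 members and for miR-203-3p, miR-375-3p, miR-143-3p and miR-1a-3p, but not for miR-34c-5p; miR-881-3p, miR-741-3p and miR-34b-3p of the germ cell list, not plotted, were also highest there.

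The profiles of the members over the 8 libraries were compared with those of the 223 other tested miRNAs. Likeness was the root mean square difference of log2 CPM, each miRNA set to its own mean, and it is a description over libraries that share totals. The 5 nearest to miR-200c-3p were miR-125b-5p (0.121), miR-743a-3p (0.126), miR-743b-3p (0.134), miR-465a-3p (0.139) and miR-465c-3p (0.140), where the median over the 223 was 0.428. All 5 were above their own mean in Exposed 2 (by 0.45 to 0.80 on the log2 scale) and below it in Trained 3 (from -0.59 to -0.40). That follows from how they were picked, since miR-200c-3p itself was at 0.72 and -0.50 in these libraries. miR-743a and miR-743b, like miR-465a and miR-465c, are close paralogues, so these are not separate results. The 5 nearest to miR-200b-3p were miR-203-3p (0.139), miR-125a-5p (0.162), miR-34b-3p (0.167), miR-340-3p (0.171) and miR-130a-3p (0.173), where the median was 0.302. In Exposed 2 they were 0.67, 0.6, 0.16, 0.13 and 0.3 above their own means, against 0.49 for miR-200b-3p. miR-34b-3p and miR-340-3p varied little over the libraries (SD of log2 CPM 0.109 and 0.0981). A small difference therefore need not mean a shared pattern. The members were less alike than these nearest 5, which are the smallest differences of 223, but more alike than the medians. miR-200b-3p was at 0.230 from miR-200c-3p. Of the 223 miRNAs outside the family, 23 were nearer to miR-200c-3p and 42 nearer to miR-200b-3p. miR-200a-3p was at 0.219 from miR-200b-3p, its neighbour in the cluster, with 37 of 223 nearer. It was at 0.331 from miR-200c-3p, with 67 nearer.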

How the data were processed

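Small RNA was sequenced from 8 sperm samples as 50 nt single-end reads, per the labels' protocols. The authors deposited whole-number counts per mature miRNA. The authors' deposited table also gives log2 fold changes and average log2 CPM, p-values with FDR, and group means of the counts (a score here). The submitters' processing notes name edgeR. For trimming, aligner, miRNA reference, build and reads matching several miRNAs, the method is not given in the sources used here.

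Groups and replicate numbers came from sample titles. Levels are counts scaled by the library total. Differences used edgeR 4.0.16 (R 4.3.3) on the whole table: TMM factors, filterByExpr with its defaults, the robust quasi-likelihood test (two-sided), and FDR by Benjamini-Hochberg over all 226 miRNAs that passed. The 161 that did not pass had 0.258% of counts. Standard errors follow from each p-value. TMM scaling makes the fitted fold changes differ slightly from ratios of library-total CPM. The fit was tested on simulated data, where an FDR under 0.05 was reached by 76.8% of 2-fold and 97.8% of 4-fold changes. It was also reached by 0.767% of unchanged miRNAs. Simulated counts were drawn independently, with no library that deviates in many miRNAs, so the test does not cover a library such as Exposed 2. Other settings used DESeq2 1.42.0 and limma 3.58.1. Intervals of shares are exact (Clopper-Pearson, scipy 1.17.1). Profiles used a prior of 1 count.

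Every family row is named; nearest profiles are the 5 with the smallest root mean square difference to each of the 2 most abundant members. Members, lists and tests were chosen with earlier results of these data known. Older names in the table were matched to list members afterwards (miR-142, miR-486, and miR-3107 for miR-486b).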

Additional observations from a re-analysis of the deposited data

Results flagged for a closer look

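In each group of 4 libraries, the gap of the highest or lowest library to its nearest neighbour was set against the group's range for 32 sets of values, the 7 members, their sum, 2 shares and 6 marker lists in both groups. The gap passed Dixon's 95% critical value in 4 of the 32. Its rate of about 1 in 20 by chance holds for independent, normally spread values. Some of these sets share counts and others hold few counts, so no excess over chance can be read from the 4. miR-200c-3p stood at 1939 CPM in Exposed 2, with the other Exposed libraries between 1021 and 1119 CPM. The family's sum, which is mostly miR-200c-3p and so is not a separate result, stood at 3552 CPM in Exposed 2, with the others between 1997 and 2129 CPM. miR-200a-5p stood at 3.84 CPM in Trained 2, with the others between 7.64 and 8.35 CPM, a difference of 1 count against 2. The male germ cell list stood at 270200 CPM in Trained 3, with the others between 318600 and 326000 CPM. Its members did not all go that way, since miR-34b-5p was at its highest in Trained 3.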

How the results depend on the processing

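The count of miRNAs past FDR 0.05 was 0 under all 18 other settings tried, with 5 to 18 at an unadjusted p under 0.05. Scaling, count filters, DESeq2, limma-voom and adding near-identical members together kept the 3 fitted values below 0. With 1 library left out, the log2 fold change ran from -0.29 to 0.083 for miR-200c-3p, -0.27 to -0.05 for miR-200b-3p and -0.45 to 0.030 for miR-200a-3p, with values above 0 without Exposed 2 alone. Without both Exposed 2 and Trained 3, chosen after seeing the data, the values were 0.26, 0.0024 and 0.011. The log2 ratio of the family's summed CPM, -0.18, ran from -0.26 to 0.06. The chromosome 6 share moved to 61.9% in Exposed and 62.3% in Trained over miR-200b-3p and miR-200c-3p only, since this leaves out miR-200a and the low members. With the replicate number as a replicate block the values were -0.16 for miR-200c-3p, -0.19 for miR-200b-3p and -0.22 for miR-200a-3p, with 0 called. Deviations of libraries with the same number had correlations of -0.41, 0.66, 0.69 and 0.49. Libraries of different numbers were not set beside these, so the values do not decide whether the numbers pair them. The main fit left pairing out because the titles do not state it. Depth limits the 4 low members, at 0 to 8 counts per library.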
